A study of Mus musculus with 11 samples.

Results

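To follow bile acid metabolism through acute liver injury, 10 genes of bile acid synthesis and handling were examined among the 31053 genes listed in the deposited mouse liver tables: Cyp7a1, Cyp7b1, Cyp8b1, Cyp27a1, Slc10a1, Abcb11, Baat, Slc27a5, Nr0b2 and Sult2a8. They were chosen by name, as genes of known roles in the pathway, and found by gene symbol. All 10 passed the filter on low counts in the comparison of time points, so every member was tested. Spatial gene expression was measured in 11 frozen liver sections with Visium, in which polyadenylated RNA is caught on a grid of barcoded spots, each of which takes up the RNA of several neighbouring cells. Uninjured liver (0 h) gave 3 sections, numbered 2, 3 and 4, and liver taken 24, 36 and 48 h after paracetamol (acetaminophen, APAP) gave 2, 2 and 4 sections, lettered from A. APAP is converted by pericentral hepatocytes to a toxic product that kills them, so that the injury spreads out from the central vein. The mice were adult, of the same age range throughout, and male unless stated otherwise, C57BL/6JCrl mice and reporter lines were kept, and fasting came before the injection of APAP in buffered saline into the peritoneum, as the methods state. The strain of the mouse behind each section is not stated, and the labels name no transgene or deletion. Whether the uninjured mice were fasted, and at what time of day each liver was taken, is not given in the sources used here.

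By the methods each time point of the mouse spatial data is a single liver, but the labels list several sections. Sections were therefore the unit of n, the p-values cover only the spread between sections, and mouse and time cannot be told apart. No label names a batch. Sections held 1490 to 3466 spots that passed the filters and 31292663 to 67045372 unique molecular identifiers (UMIs, each counting 1 captured transcript), and every section was deep enough for each member to be detected. Levels of whole sections are given as CPM, the UMIs of a gene per 1000000 UMIs of the section after TMM scaling. They are not corrected for transcript length, so levels are compared between sections and not between genes. Hepatocyte markers (Alb, Apoa1, Apoa2, Apoh, Ttr and Trf), summed, lay at 148915 to 157586 CPM at 0 h and at 89645 to 117629 CPM in the injured sections, so that the defining markers of the labelled tissue were present in every section. Single markers differed. Alb, Apoa1, Apoa2 and Ttr lay lower in every injured section than at 0 h, and Apoh overlapped with 0 h. Trf lay higher in every injured section (11025 to 16384 CPM) than at 0 h (9398 to 10954 CPM). The sum, used below as a scale, need not measure hepatocyte content. In whole sections, fewer hepatocytes and less RNA of a gene per hepatocyte cannot be told apart.

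Bile acids are made from cholesterol in hepatocytes. The classic route opens with the 7alpha-hydroxylase CYP7A1 and passes through the 12alpha-hydroxylase CYP8B1, which sets how much cholic acid is formed, whereas the alternative route opens with the mitochondrial enzyme CYP27A1 and continues through CYP7B1. The acids are activated by the ligase SLC27A5 and joined to taurine or glycine by BAAT, can be sulfated by SULT2A8 in mouse liver, return from the portal blood through the transporter NTCP (Slc10a1) and leave the hepatocyte through the bile salt export pump BSEP (Abcb11). The orphan receptor SHP (Nr0b2) is induced when bile acids activate the receptor FXR and restrains Cyp7a1 and Cyp8b1.

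The members lie on several chromosomes of mouse build GRCm38 and are all protein-coding. Cyp7a1, the first step of the classic route, spans chr4:6265612-6275633 on the minus strand, and Nr0b2 spans chr4:133553376-133556536 on the plus strand. Cyp8b1 spans chr9:121914356-121916305, Abcb11 spans chr2:69238282-69342616 and Sult2a8 spans chr7:14410686-14446769, each on the minus strand. The 3′ ends from which the assay reads were specific: of the 451 stretches of 50 bases in the last 500 bases of each member, 0 were shared with another annotated gene. RefSeq promoter windows of 300 bases (250 before and 50 after the start) were at hand for 6 of the 10 members; Cyp7a1, Cyp7b1, Baat and Slc27a5 had none. The windows of 3 members are shown because Cyp8b1, Abcb11 and Nr0b2 took different courses after injury, and capitals mark the motif found in each.
Cyp8b1: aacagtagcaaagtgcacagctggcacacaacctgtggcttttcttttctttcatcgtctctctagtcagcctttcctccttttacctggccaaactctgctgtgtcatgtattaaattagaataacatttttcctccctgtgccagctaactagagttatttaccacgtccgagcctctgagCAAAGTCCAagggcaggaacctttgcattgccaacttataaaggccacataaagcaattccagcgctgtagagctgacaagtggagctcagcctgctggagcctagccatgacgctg
Abcb11: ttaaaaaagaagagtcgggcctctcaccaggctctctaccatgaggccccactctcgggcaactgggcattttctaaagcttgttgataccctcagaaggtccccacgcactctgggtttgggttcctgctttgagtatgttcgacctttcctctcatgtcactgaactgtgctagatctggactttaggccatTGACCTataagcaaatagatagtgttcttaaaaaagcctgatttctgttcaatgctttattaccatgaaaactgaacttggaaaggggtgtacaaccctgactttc
Nr0b2: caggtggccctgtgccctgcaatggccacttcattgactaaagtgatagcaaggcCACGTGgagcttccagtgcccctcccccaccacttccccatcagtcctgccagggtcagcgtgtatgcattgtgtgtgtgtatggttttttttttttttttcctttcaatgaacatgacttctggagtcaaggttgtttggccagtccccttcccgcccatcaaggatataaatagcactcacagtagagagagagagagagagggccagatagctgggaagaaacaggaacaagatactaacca

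These windows are chr9:121916256-121916555 on the minus strand, chr2:69342567-69342866 on the minus strand and chr4:133553126-133553425 on the plus strand of GRCm38.p6, read 5′ to 3′ along the gene. Motifs of factors known in hepatocyte or clock gene control were searched on both strands. They included the nuclear receptor half-site AGGTCA, its extended form CAAGGTCA that contains it, the HNF4-type element CAAAGTCCA, the E-box CACGTG and the C/EBP-type element TTGCGCAA. The Cyp8b1 window held the HNF4-type element CAAAGTCCA from position -67 relative to the start, a motif found in 0.475% of all 32851 promoter windows. The Abcb11 window held the nuclear receptor half-site AGGTCA on the opposite strand, printed as TGACCT, from position -56, and 16.3% of all windows held it. The Nr0b2 window held the E-box CACGTG from position -195, which 7.15% of all windows held. AGGTCA also stood in the second windows of Slc10a1 (from position -87) and Sult2a8 (from positions -164 and -90), whose starts lie 626 and 8218 bases from the annotated gene start. The first windows of both genes and the Cyp27a1 window held none of these motifs. CAAGGTCA and TTGCGCAA, which stood in 1.56% and 0.183% of all windows, were found in no window of a member.

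Bile acid genes were lower after APAP at every time point. Against 0 h, 8 of the 10 genes fell at 24 h, 8 at 36 h and 8 at 48 h (edgeR quasi-likelihood test, adjusted p under 0.05 over 14821 genes), and 0 rose. The same 8 genes fell each time: Cyp7b1, Cyp8b1, Cyp27a1, Slc10a1, Abcb11, Baat, Slc27a5 and Sult2a8. Each of these lay below every 0 h section in every injured section. The share of all genes tested that did so is not given here, so this is a description. Of all genes tested, 18.6% were lower and 23.1% higher at 24 h. The 2 shares were 12.4% and 16.8% at 36 h and became 20.9% and 23.3% at 48 h. The median log2 fold change of the 10 genes was -2.0, -1.26 and -1.21, against medians of 0.05, 0.05 and 0.01 over all genes. Without section 36 h B, 4 of the 8 calls at 36 h remained, with adjusted p of 0.130 for Cyp7b1, 0.0661 for Baat, 0.147 for Slc27a5 and 0.0961 for Sult2a8.

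The scale set how large these falls were. TMM factors were 0.783 to 0.811 at 0 h and 0.983 to 1.17 after injury, so scaling by total UMIs in place of TMM moved all genes up by a median log2 of 0.33, 0.44 and 0.53 at 24, 36 and 48 h, and scaling by the hepatocyte marker UMIs moved them up by 0.62, 0.47 and 0.60. Of the genes called, 55.4%, 57.5% and 52.7% were higher under TMM, 80.4%, 94.1% and 93.7% under total UMIs and 91.3%, 95.4% and 95.4% under the hepatocyte markers. All 8 genes kept their direction under both. At 48 h, 5 of the 8 calls remained under either scale, and those lost were Abcb11 (adjusted p = 0.284 and 0.406), Baat (0.158 and 0.291) and Slc27a5 (0.0869 and 0.203). Baat (0.166 and 0.255) and Slc27a5 (0.385 and 0.566) were the calls lost at 36 h, and Baat under the hepatocyte markers alone (0.180) the call lost at 24 h.

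**Figure D1:**
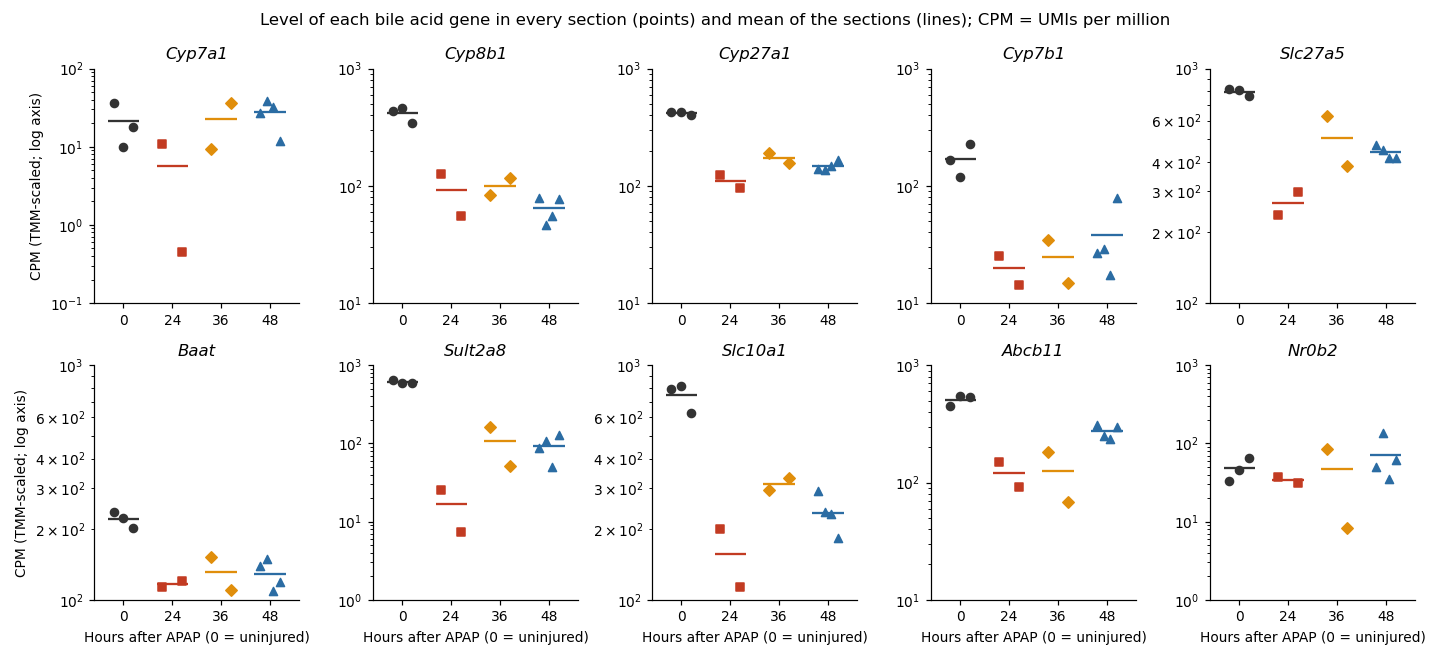
Level of each of the 10 genes in every section, in CPM after TMM scaling on a log axis, against hours after APAP (0 h black circles, 24 h red squares, 36 h orange diamonds, 48 h blue triangles; horizontal lines are means of the sections). For the 8 genes other than Cyp7a1 and Nr0b2 the injured sections all lie below the 3 sections at 0 h. The share of all genes that do so is not given. Cyp7a1 and Nr0b2 overlap with 0 h and differ widely between sections of a time point.

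Cyp7a1, the rate-limiting enzyme of the classic route, did not pass the test at any time and varied widely between sections of a time point. Sections 2, 3 and 4 at 0 h held 36.8, 9.96 and 17.7 CPM, the 24 h sections A and B held 10.9 and 0.447 CPM, the 36 h pair held 9.36 and 36.4 CPM, and the 4 sections of 48 h held 27.0, 38.7, 32.6 and 11.7 CPM, in order of letter. The 0 h values overlapped with those of 36 h and 48 h, and with 24 h A, which lay above section 3 of 0 h. Section 24 h B stood far below all others, with 14 UMIs of the gene against 323 to 2272 in the other sections. In log2 terms the 3 changes were -1.88 (adjusted p = 0.170, SE 1.03), 0.09 (adjusted p = 0.954, SE 0.94) and 0.36 (adjusted p = 0.738, SE 0.79), taken in order of time. The 24 h value reached -5.58 and passed the test without section 24 h A (adjusted p = 0.0225), and the 36 h value changed sign without 36 h B, to -1.20. Cyp7a1 is known to follow the daily cycle and feeding. Of 14 clock genes, 5 were higher and 4 lower at 36 h than at 0 h, and the clock output gene Dbp lay at 63.4 and 28.8 CPM in 36 h A and B against 2.90 to 10.9 CPM in all other sections. The part of the daily cycle in the Cyp7a1 values was not tested.

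Cyp8b1, the classic route's branch enzyme toward cholic acid, fell at every time point. It held 436, 461 and 345 CPM in the 0 h sections, 127 and 55.8 CPM at 24 h, 82.8 and 117 CPM at 36 h and 78.9, 46.5, 55.3 and 76.6 CPM at 48 h. No injured section came near the lowest uninjured one, and all 48 h sections lay below both 36 h sections. The log2 fold change was -2.18 (SE 0.37, adjusted p = 0.00116), -2.05 (SE 0.36, adjusted p = 0.00333) and -2.69 (SE 0.29, adjusted p = 9.31e-05), the last being a 6.43-fold lower level.

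The alternative route fell at both of its steps. Cyp27a1, the sterol 27-hydroxylase, held 428, 428 and 404 CPM at 0 h, 123 and 96.2 CPM at 24 h, 190 and 158 CPM at 36 h and 140, 136, 147 and 166 CPM at 48 h. The time points did not overlap with 0 h, and both 36 h sections lay above both 24 h sections. Its log2 fold change was -1.93 (SE 0.15, adjusted p = 2.6e-05), -1.27 (SE 0.15, adjusted p = 0.000518) and -1.51 (SE 0.12, adjusted p = 1.88e-05).

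Cyp7b1, the 7alpha-hydroxylase of oxysterols, also fell. Levels of 167, 119 and 225 CPM at 0 h were followed by 25.3 and 14.4 CPM at 24 h, 34.6 and 14.8 CPM at 36 h and 26.9, 28.8, 17.5 and 79.0 CPM at 48 h. Section 48 h D stood above the other injured sections but still below the lowest uninjured one. The log2 fold change was -3.10 (SE 0.70, adjusted p = 0.00607), -2.79 (SE 0.68, adjusted p = 0.0152) and -2.16 (SE 0.51, adjusted p = 0.00739). Without section 24 h B the 24 h value was -2.75 with an adjusted p of 0.0607.

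**Figure D2:**
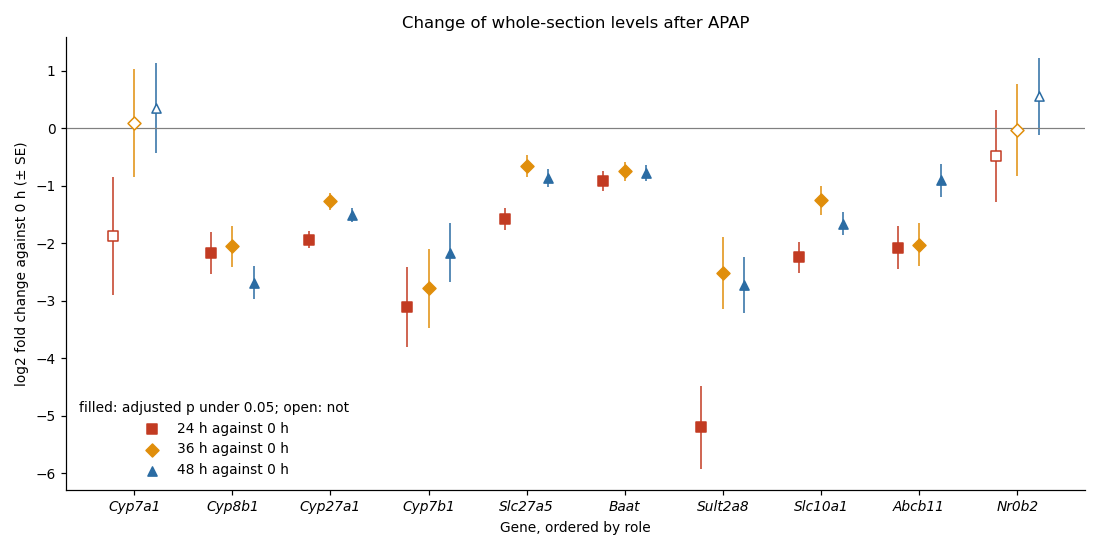
Log2 fold change against 0 h (± SE from the edgeR fit) of each gene at 24, 36 and 48 h after APAP, with filled symbols for an adjusted p under 0.05 and open symbols otherwise. Sult2a8 at 24 h is the lowest value at -5.20, all 8 called genes are below 0 at the 3 times, and the open values of Cyp7a1 at 36 h and 48 h and of Nr0b2 at 24 h and 36 h change sign under another scale, spot set or set of sections.

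Both conjugation enzymes fell. Slc27a5, the bile acid CoA ligase, held 819, 810 and 762 CPM at 0 h, 237 and 296 CPM at 24 h, 628 and 385 CPM at 36 h and 474, 448, 415 and 417 CPM at 48 h. The 24 h sections were the lowest of all, and 36 h A came closest to the uninjured sections. Its log2 fold change was -1.58 (SE 0.19, adjusted p = 0.000177), -0.65 (SE 0.19, adjusted p = 0.0249) and -0.86 (SE 0.15, adjusted p = 0.0012). The 36 h call did not hold without section 0 h 2, 0 h 3 or 36 h B (adjusted p = 0.0695, 0.0662 and 0.147). Baat, which joins the activated acid to taurine or glycine, held 237, 222 and 202 CPM at 0 h, and the injured sections lay between 109 and 152 CPM. This narrow band held at each time, and its log2 fold change was -0.91 (SE 0.17, adjusted p = 0.00197), -0.75 (SE 0.17, adjusted p = 0.00966) and -0.77 (SE 0.14, adjusted p = 0.00137).

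Sult2a8, the sulfotransferase, had the lowest log2 fold change of the 10 genes at 24 h. The 0 h sections held 657, 600 and 584 CPM, the 24 h sections 25.7 and 7.47 CPM, the 36 h sections 163 and 51.1 CPM and the 48 h sections 87.1, 106, 50.3 and 127 CPM. Both 24 h sections lay below every other section, and both 36 h and all 48 h sections lay between 24 h and 0 h. The 24 h level was 36.9-fold lower than at 0 h, a log2 fold change of -5.20 (SE 0.73, adjusted p = 0.000516), followed by -2.52 (SE 0.63, adjusted p = 0.016) and -2.73 (SE 0.49, adjusted p = 0.00163). With each spot thinned to 2000 UMIs, 60.4% to 62.9% of spots held a Sult2a8 UMI at 0 h, 4.84% and 1.94% in 24 h A and B, 29.8% and 10.7% in 36 h A and B, and 11% to 24.3% at 48 h. At 24 h and at 36 h section A lay above section B in both the share and the level.

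The uptake transporter Slc10a1 (NTCP) and the export pump Abcb11 (BSEP) both fell, by different courses. Slc10a1 held 791, 815 and 627 CPM at 0 h, 200 and 114 CPM at 24 h, 293 and 331 CPM at 36 h and 290, 236, 233 and 183 CPM at 48 h. Its lowest section was 24 h B, and every 36 h section lay above every 24 h section. The log2 fold change was -2.25 (SE 0.26, adjusted p = 0.000136), -1.25 (SE 0.25, adjusted p = 0.00528) and -1.66 (SE 0.20, adjusted p = 0.000143). Abcb11 held 448, 551 and 531 CPM at 0 h, 150 and 92.2 CPM at 24 h, 182 and 68.8 CPM at 36 h and 311, 251, 233 and 298 CPM at 48 h. All 48 h sections lay above all 24 h and 36 h sections, and section 36 h B was the lowest. The log2 fold change was -2.07 (SE 0.37, adjusted p = 0.00164), -2.02 (SE 0.37, adjusted p = 0.00384) and -0.90 (SE 0.28, adjusted p = 0.0265), and the last call did not hold without section 0 h 3, 0 h 4, 48 h B or 48 h C (adjusted p = 0.0791, 0.0679, 0.0609 and 0.0686).

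Nr0b2, which encodes the repressor SHP, did not pass the test at any time. It held 33.0, 46.0 and 64.4 CPM at 0 h, 37.3 and 31.1 CPM at 24 h, 85.5 and 8.33 CPM at 36 h and 49.2, 135, 34.9 and 62.1 CPM at 48 h. The pair of 36 h sections spanned a wider range than the uninjured ones, with 36 h B the lowest of all 11 and 48 h B the highest. The log2 fold change was -0.48 (SE 0.81, adjusted p = 0.666), -0.03 (SE 0.80, adjusted p = 0.985) and 0.56 (SE 0.67, adjusted p = 0.528), of which the 24 h value turned to 0.14 under the hepatocyte marker scale and the 36 h value to 0.44 and 0.52 under total UMIs and hepatocyte markers. Without 36 h B the 36 h value was 0.84 (adjusted p = 0.405). Section 36 h B thus held the lowest Nr0b2 and Abcb11 of all sections and one of the higher Cyp7a1 levels, whereas 36 h A held the second highest Nr0b2 and one of the lower Cyp7a1 levels. This opposite order did not extend to all sections, since 48 h B held the highest level of both Nr0b2 (135 CPM) and Cyp7a1 (38.7 CPM). Over the 11 sections the Pearson r of Cyp7a1 with Nr0b2 was -0.008 on the log2 scale.

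Among the injured times, 4 of the 10 genes were higher at 36 h than at 24 h: Cyp27a1 by a log2 of 0.66 (SE 0.15, adjusted p = 0.0203), Slc10a1 by 0.99 (SE 0.27, adjusted p = 0.0325), Slc27a5 by 0.92 (SE 0.20, adjusted p = 0.0164) and Sult2a8 by 2.68 (SE 0.66, adjusted p = 0.0274). Of all genes tested, 7.05% were called higher. Of these 4 calls, 1 was kept without 24 h B, 2 without 36 h A and 0 when the fit held only the pair of groups or only the injured sections, with or without the section letter as replicate block. At 48 h against 24 h, 4 genes were higher, namely Cyp27a1 by 0.42 (SE 0.14, adjusted p = 0.0338), Abcb11 by 1.17 (SE 0.34, adjusted p = 0.0245), Slc27a5 by 0.72 (SE 0.18, adjusted p = 0.0118) and Sult2a8 by 2.48 (SE 0.62, adjusted p = 0.013), beside 16.3% of all genes. Without 24 h B, Slc27a5 was the single one of these 4 still called (adjusted p = 0.0296), and with the section letter as replicate block among the injured sections 0 were. Between 36 h and 48 h, 0 of the 10 genes and 3.05% of all genes were called by edgeR, with 1 of the 10 (Abcb11, log2 1.12 higher at 48 h) at an unadjusted p under 0.05, 1 called by DESeq2, and 1 called by edgeR without 36 h A or without 36 h B. The split of calls among all genes moved with the scale here as well, since the calls that were higher made up 45.2% (36 h over 24 h), 47.7% (48 h over 24 h) and 53.1% (48 h over 36 h) under TMM. Under total UMIs these shares were 68.0%, 74.0% and 74.2%, and under hepatocyte markers 26.5%, 47.6% and 76.8%.

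To compare steps of the pathway within a section, where the scale between sections plays no part, 3 ratios of UMIs were formed. The ratio of Slc10a1 to Abcb11, uptake against export, was 1.77, 1.48 and 1.18 in the 0 h sections, 1.33 and 1.23 at 24 h, 1.61 and 4.82 at 36 h and 0.932, 0.940, 1.0 and 0.614 at 48 h. Every 48 h section lay below every other section, 36 h B stood far above, and over all 8 injured sections the log2 ratio averaged 0.35 ± 0.88 (SD, n = 8) against 0.54 ± 0.29 (SD, n = 3), which was not told apart by the two-sided exact permutation test (p = 0.606, adjusted over the 3 ratios 0.606). The log2 ratio of Cyp7a1 to Cyp7b1, the first 7alpha-hydroxylase of the classic against that of the alternative route, averaged -1.03 ± 2.13 (SD, n = 8) after injury and -3.14 ± 0.83 (SD, n = 3) before (exact permutation p = 0.158, adjusted 0.273). It was above all uninjured sections in 6 of 8 injured sections and below them in 1, section 24 h B. The log2 ratio of Cyp8b1 to Cyp7a1 averaged 2.58 ± 2.11 (SD, n = 8) and 4.46 ± 0.99 (SD, n = 3) (exact permutation p = 0.182, adjusted 0.273), lower than in all uninjured sections in 7 of 8 injured sections. With 165 possible splits, a single split is a share of 0.00606. The two-sided p doubles the smaller tail, so it could not go as low as this share.

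Across the 11 sections, which share their time points, the 8 called genes varied together on the log2 scale, with Pearson r of 0.589 to 0.949 over their 28 pairs (median 0.853), given as a description. Cyp7a1 correlated with the other 9 at -0.008 to 0.491 and Nr0b2 at -0.158 to 0.542. The genes whose course over the 11 sections was most like that of a member, among 9134 genes with a mean of at least 5 CPM, reached r of 0.877 to 0.992, and 0 of them was another member. For Sult2a8 they were Hgd, Rarres2 and Sar1b (r = 0.986, 0.985 and 0.983), for Cyp27a1 Fxyd1, Cyp2e1 and Tm7sf2 (0.992, 0.986 and 0.983), and for Slc10a1 Sdhb, Cyc1 and Slc6a12 (0.989, 0.987 and 0.981). Cyp7b1 went with Arhgap29, Lifr and Ugt2b5 (0.985, 0.976 and 0.972), Cyp8b1 with Akr7a5, Rdh11 and Ndufs8 (0.984, 0.981 and 0.977), and Abcb11 with Ormdl1, Abca2 and Gpx1 (0.977, 0.974 and 0.966). Baat went with Mocs2, Sucla2 and Rdx (0.986, 0.972 and 0.969), Slc27a5 with Cdc14b, Rbp4 and Setd3 (0.988, 0.987 and 0.982), Nr0b2 with Thoc7, Osgin1 and Tmem80 (0.884, 0.882 and 0.877), and Cyp7a1 with Ccar2, Gstm5 and Aldh1b1 (0.910, 0.889 and 0.889).

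The wider pathway was read from lists of genes beyond the 10. Of 18 other synthesis enzymes, 10 fell and 1 rose at 24 h, 7 fell and 2 rose at 36 h, and 9 fell and 2 rose at 48 h. The 3 largest falls at 48 h among those with at least 5 CPM were Abcd3, the peroxisomal importer of bile acid precursors (from 421 to 120 CPM, log2 -1.81), Scp2, the peroxisomal thiolase gene (from 3932 to 1758 CPM, log2 -1.16), and Slc27a2 (log2 -1.08), while Por, the electron donor of microsomal P450 enzymes, rose (from 85.4 to 196 CPM, log2 1.2, adjusted p = 0.0111). Of 16 transporters tested, 10 fell and 2 rose at 24 h, 4 fell and 2 rose at 36 h, and 6 fell and 3 rose at 48 h. The falls at 48 h were led by the basolateral uptake carriers Slco1a1 (from 314 to 67.1 CPM, log2 -2.23) and Slco1b2 (from 636 to 324 CPM, log2 -0.97) and by Ephx1 (log2 -1.02). Ephx1, counted in this list, encodes an epoxide hydrolase. The rises were those of Abcc4, a basolateral exporter (from 2.64 to 9.08 CPM, log2 1.78, adjusted p = 0.0021), Slco1a4 (log2 1.28) and Slc10a2 (log2 0.95).

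Of 15 receptors and regulators tested, 1 fell and 0 rose at 24 h, 2 fell and 3 rose at 36 h, and 3 fell and 2 rose at 48 h, among them Klb, the co-receptor for intestinal FGF signals to bile acid synthesis (log2 -0.92), and Rxra (-0.49), which fell, and Nr1i3 (0.48), which rose. Nr1h4, which encodes FXR, did not pass the test at any time (log2 -0.05, 0.28 and -0.16). With 20.9% of all genes lower and 23.3% higher at 48 h, the receptors' counts at that time were no larger a share than among all genes. Of 8 sulfation and detoxification genes tested, 5 fell and 1 rose at 24 h, 3 and 1 at 36 h, and 4 and 1 at 48 h, with Ugt2b1 (log2 -2.24), Cyp3a11 (-1.83) and Papss2 (-0.69), which makes the sulfate donor, lower and Acnat2 higher (from 8.01 to 58.2 CPM, log2 2.86) at 48 h. Intestinal markers (Fabp6, Fgf15, Vil1 and Muc2) summed to at most 1.49 CPM in any section, with 1 of the 4 genes at 0 in all 0 h sections and 2 of the 4 in all sections of each later time.

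To place the genes along the lobule in uninjured liver, the hepatocyte-rich spots of each 0 h section were ordered by a periportal minus a pericentral landmark score and cut into 5 equal bins. The landmarks held none of the 10 genes. Of these, 4 were lower and 2 higher in the periportal than in the pericentral bin (edgeR, 11648 genes tested, of which 11.5% were lower and 12.6% higher). Cyp7a1 had the steepest gradient, from 28.6 CPM in the pericentral bin through 21.4, 17.2 and 11.9 to 7.21 CPM in the periportal bin (means, n = 3). Each section fell from the first to the last bin, from 50.2 to 12.8 CPM in section 2, from 12.9 to 3.0 in section 3 and from 22.8 to 5.8 in section 4, so that the log2 difference was nearly the same in the 3 sections, -1.99 (SE 0.10, adjusted p = 3.87e-66), despite their different levels.

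Sult2a8 fell from 607 through 555, 489 and 436 to 365 CPM toward the portal side (log2 -0.73, SE 0.03, adjusted p = 1.42e-86) and is in the study's own pericentral list, which was drawn from its spatial data. Cyp27a1 fell from 413 through 370, 327 and 298 to 266 CPM (log2 -0.63, SE 0.03, adjusted p = 1.41e-65) and Cyp7b1 from 170 through 141, 129 and 124 to 114 CPM (log2 -0.56, SE 0.05, adjusted p = 6.58e-10). These 3 genes were lower in the periportal bin in all 3 sections. Cyp8b1 was also lower there in all 3, with means of 391 and 279 CPM in the outer bins (log2 -0.48, SE 0.11), but did not pass the test (adjusted p = 0.106). It passed with 3 bins in place of 5 (adjusted p = 0.00136), with the study's landmark lists (0.0449) and without any 1 of the 3 sections (1.59e-15, 1.25e-14 and 0.000124 without sections 2, 3 and 4).

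The transporters had shallow gradients of the opposite direction. Abcb11 rose from 355 through 383, 408 and 417 to 457 CPM toward the portal side (log2 0.36, SE 0.03, adjusted p = 9.91e-27), higher in 3 of 3 sections, and its difference was 0.01 under the hepatocyte marker scale. Slc10a1 lay at 560 and 610 CPM in the outer bins (log2 0.12, SE 0.03, adjusted p = 0.000204), a call that was lost under total UMIs (adjusted p = 0.116) and without section 2 (adjusted p = 0.128) and that turned to -0.23 under the hepatocyte marker scale. Baat (178 and 172 CPM, log2 -0.05, adjusted p = 0.369), Slc27a5 (612 and 639 CPM, log2 0.06, adjusted p = 0.0974) and Nr0b2 (36.1 and 43.9 CPM, log2 0.25, adjusted p = 0.714) did not pass, and the last 2 turned below 0 under the hepatocyte marker scale. Nr0b2 passed without section 3, the single section in which it was lower on the portal side (log2 0.62, adjusted p = 3.42e-14). The very small p-values rest on a spread shared over all genes (prior degrees of freedom 476 against 2 residual), so the count of sections is the plainer guide. Hepatocyte markers took 10.2% to 11% of UMIs in the pericentral and 12.6% to 13.4% in the periportal bin of the 3 sections, and by their scale 8 of the 10 genes were lower on the portal side and 0 higher. Of all calls, 52.1% of 2807 were higher on the portal side under TMM, 34.4% of 3120 under total UMIs and 4.48% of 8059 under hepatocyte markers. The median log2 over all genes was -0.35 under hepatocyte markers, so most genes lay lower on the portal side by that scale.

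**Figure D3:**
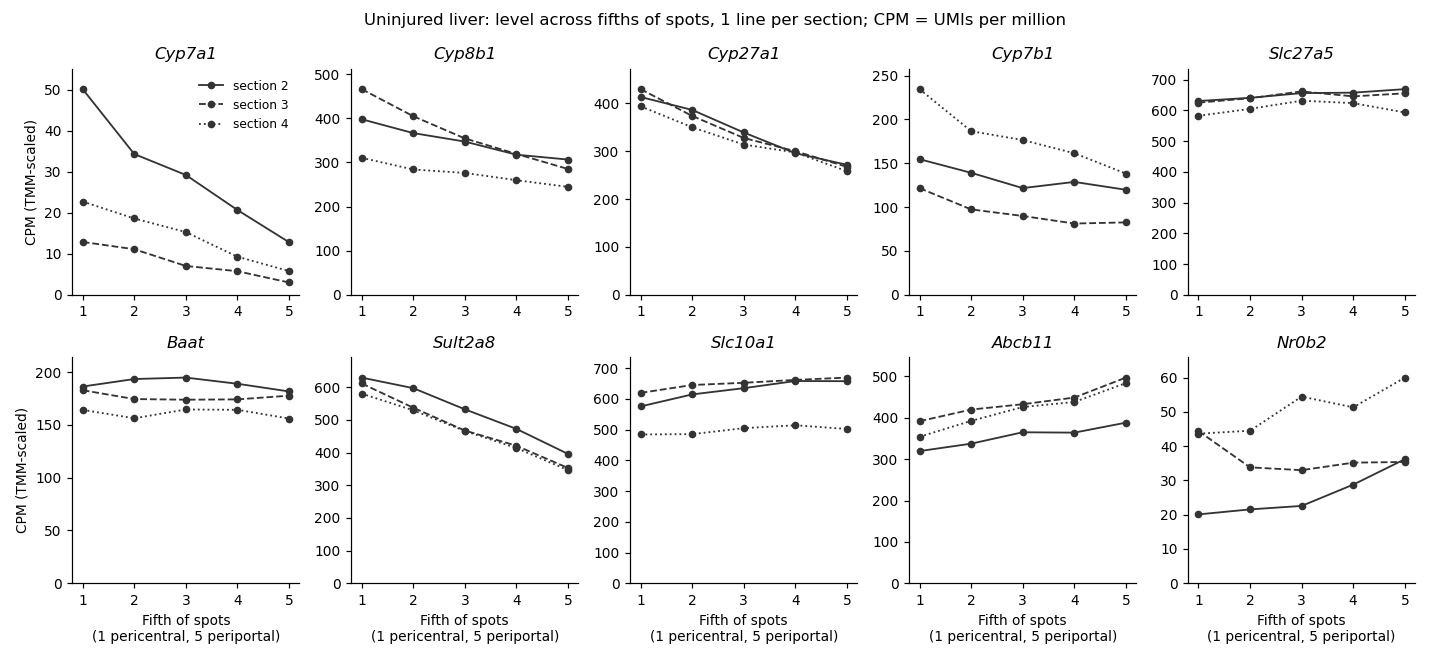
Level in CPM (linear axis from 0) of each gene in 5 bins of hepatocyte-rich spots of the uninjured liver, from pericentral (1) to periportal (5), with 1 line for each of the 3 sections. Cyp7a1, Cyp8b1, Cyp27a1, Cyp7b1 and Sult2a8 slope down toward the portal side in every section and Abcb11 slopes up, a slope that is 0.01 in log2 under the hepatocyte marker scale.

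Summed pericentral landmarks averaged 4874 CPM at 0 h and 1062, 1528 and 1815 CPM at 24, 36 and 48 h. The periportal landmarks fell less, from 4234 CPM to 2033, 3017 and 2382 CPM, and single landmarks differed. Pericentral Lect2 was higher at 48 h (225 to 304 CPM) than at 0 h (125 to 149 CPM). Periportal Serpina12 was lower at 48 h (29.2 to 168 CPM) than at 0 h (351 to 636 CPM). Spots were therefore ordered by the periportal score alone and cut again into 5 bins. TMM factors were taken anew from these bins, so their CPM are not comparable with those of the first ordering. The bin with the highest score (portal-high) was compared with the bin with the lowest (portal-low) at each time. A portal-low spot of an injured section need not be pericentral. In the 0 h sections this ordering gave 1 gene higher (Abcb11) and 5 lower (Cyp7a1, Cyp7b1, Cyp8b1, Cyp27a1 and Sult2a8) in portal-high spots, beside 6.0% and 5.79% of 13119 genes. At 24 h, 4 were higher and 2 lower, beside 9.96% and 8.60%. At 36 h, 5 were higher and 0 lower (11.8% of all genes higher), and at 48 h, 9 were higher and 0 lower (24.7% of all genes higher). Of all calls at 0, 24, 36 and 48 h, 50.9%, 53.7%, 55.0% and 46.1% were higher under TMM, 38.2%, 14.9%, 15.9% and 15.4% under total UMIs, and 4.28%, 1.38%, 1.69% and 4.17% under hepatocyte markers.

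At 48 h all members but Cyp7a1 were higher in portal-high spots. Abcb11 held 200, 167, 164 and 218 CPM in the portal-low and 456, 354, 363 and 392 CPM in the portal-high bin of sections A to D (log2 1.07, SE 0.06, adjusted p = 1.26e-10). Slc10a1 held 214, 160, 181 and 136 CPM against 381, 314, 339 and 244 CPM (log2 0.89, SE 0.04, adjusted p = 1.26e-22), and Slc27a5 held 349, 325, 322 and 324 CPM against 634, 593, 622 and 523 CPM (log2 0.85, SE 0.05, adjusted p = 5.75e-21). For all 3 genes every portal-high bin lay above every portal-low bin. Baat differed by 0.81, Nr0b2 by 1.02, Cyp8b1 by 0.68, Cyp7b1 and Sult2a8 by 0.53 each and Cyp27a1 by 0.43, each higher in 4 of 4 sections. Cyp7a1 was the exception, at 26.3 ± 10 and 27.9 ± 13 CPM (SD, n = 4; log2 0.06, adjusted p = 0.747), higher in 2 of 4 sections, and it turned to -0.23 under total UMIs.

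Other cell types moved with these bins. At 48 h the portal-low bins held 10.4% of UMIs in hepatocyte markers, 0.165% in macrophage markers and 0.142% in myofibroblast markers on average, against 13%, 0.0554% and 0.0381% in the portal-high bins, whereas at 0 h macrophage markers took 0.0370% and 0.0422% and myofibroblast markers 0.0034% and 0.0029%. Under the hepatocyte marker scale 5 genes remained higher in portal-high spots at 48 h (Abcb11 by 0.46, Nr0b2 by 0.41, Slc10a1 by 0.29, Slc27a5 by 0.24 and Baat by 0.21). Cyp8b1 no longer passed (0.09), Cyp7b1 and Sult2a8 turned to -0.07 each, and Cyp7a1 (-0.56) and Cyp27a1 (-0.17) were called lower. The median over all genes was -0.64 under this scale, and 4.17% of its 11211 calls were higher. Each of these member values lay above that median.

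At the earlier injured times the bins differed for fewer genes. At 24 h the genes higher in portal-high spots were Abcb11 (log2 0.70), Baat (0.43), Slc27a5 (0.30) and Slc10a1 (0.21), and those lower were Sult2a8 (-0.48) and Cyp7b1 (-0.40). Without section 24 h B, 3 of the 10 genes were called (Abcb11, Baat and Sult2a8), and without 24 h A the calls of Cyp7b1 (adjusted p = 0.382) and Sult2a8 (log2 -0.099, adjusted p = 0.906) were lost. Slc10a1, Slc27a5 and Baat turned to -0.29, -0.21 and -0.08 under the hepatocyte marker scale, where the median over all genes was -0.50. At 36 h the genes higher were Abcb11 (0.77), Slc27a5 (0.62), Slc10a1 (0.45), Baat (0.41) and Cyp27a1 (0.32). Of these, Cyp27a1, Baat and Slc10a1 turned to -0.20, -0.12 and -0.07 under that scale (median over all genes -0.52). Each of the genes named for 24 h and 36 h moved the same way in both sections of its time point.

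**Figure D4:**
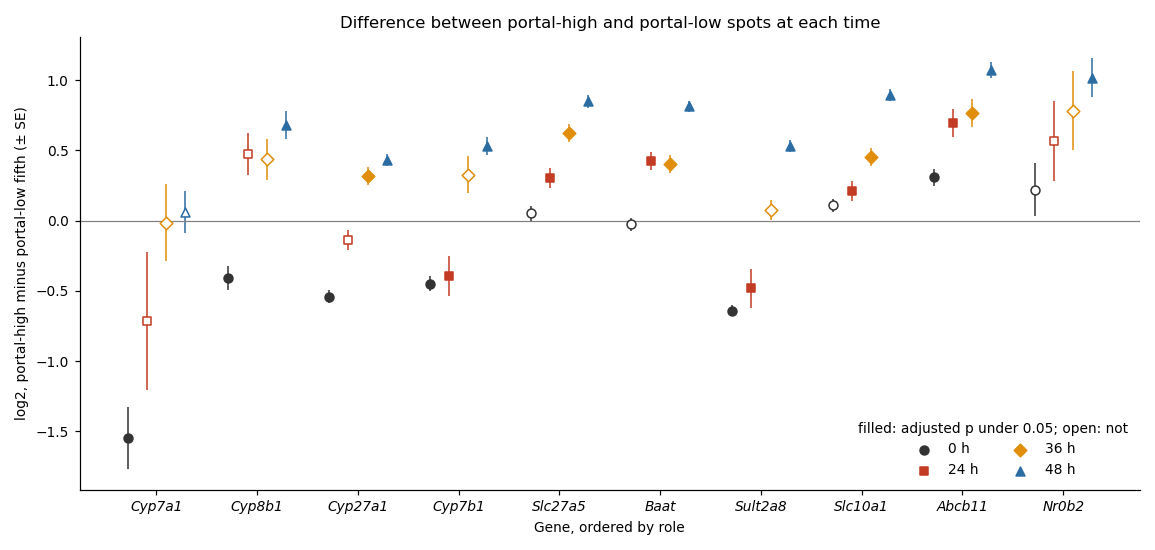
Log2 difference between the portal-high and the portal-low bin of spots (± SE from the edgeR fit, TMM scale) for each gene at 0 h (black circles), 24 h (red squares), 36 h (orange diamonds) and 48 h (blue triangles), with filled symbols for an adjusted p under 0.05. Genes below 0 at 0 h lie at or above 0 at 48 h, and under the hepatocyte marker scale Cyp7a1, Cyp7b1, Cyp27a1 and Sult2a8 stay below 0 at 48 h. The median over all genes at 48 h was -0.64 under that scale.

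The change of the gradient itself was tested as the difference between the portal-high minus portal-low contrast at an injured time and at 0 h. It was positive and called for 5 of the 10 genes at 24 h, for 9 at 36 h and for each of the 10 at 48 h, beside 6.77%, 9.31% and 18.1% of all genes, and negative for 0. At 48 h it was largest for Cyp7a1 (1.61, SE 0.27, adjusted p = 0.00136), Sult2a8 (1.17, SE 0.06, adjusted p = 5.6e-20) and Cyp8b1 (1.09, SE 0.13, adjusted p = 0.000149), genes that were lower in portal-high spots at 0 h. Cyp7b1 and Cyp27a1 followed at 0.98 and 0.97. For the genes that were flat or higher in portal-high spots at 0 h it was 0.84 (Baat), 0.80 (Slc27a5), 0.80 (Nr0b2, adjusted p = 0.0353), 0.79 (Slc10a1) and 0.76 (Abcb11). The scale changed these counts, since the hepatocyte markers left 1 of the 5 calls at 24 h (Cyp8b1), 5 of the 9 at 36 h (Cyp7b1, Cyp8b1, Cyp27a1, Slc27a5 and Sult2a8) and 9 of the 10 at 48 h, where Nr0b2 was lost (0.44, adjusted p = 0.148). Total UMIs left 2, 7 and 9, and every value stayed positive under both scales. The Nr0b2 call was also lost without 0 h 4, 48 h A, 48 h B or 48 h C (adjusted p = 0.0635, 0.0725, 0.0853 and 0.0688).

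Single sections decided the 24 h count, as 3 genes were called once 24 h A or 48 h B was left out and 1 once 24 h B was. At 36 h the Cyp7a1 value of 1.54 (adjusted p = 0.0201) dropped to 0.30 without section 36 h B (adjusted p = 0.736), and that call was also lost without any 1 of the 0 h sections. Of all calls in the tests at 24, 36 and 48 h, 58.4%, 61.05% and 53.6% were positive under TMM, 18.5%, 23.15% and 21.1% under total UMIs, and 11.2%, 15.9% and 14.6% under hepatocyte markers.

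Levels were also compared with 0 h within each outer bin, an alternative chosen after the data were seen. In the portal-low bin 8 of the 10 genes were lower at 24 h, 36 h and 48 h, and in the portal-high bin 8, 5 and 4 were. The share of all genes lower in these single-bin fits is not given here, so the counts cannot be set beside it. At 48 h the portal-high bin was lower than at 0 h in Cyp8b1 (log2 -2.13), Sult2a8 (-2.09), Slc10a1 (-1.22) and Cyp27a1 (-0.97), and the fall was not called for Cyp7b1 (-1.62, adjusted p = 0.0693), Abcb11 (-0.49, adjusted p = 0.318), Slc27a5 (-0.38, adjusted p = 0.134) and Baat (-0.29, adjusted p = 0.161). The corresponding portal-low values were -3.24, -3.28, -2.02, -1.96, -2.64, -1.27, -1.21 and -1.15 for these 8 genes in that order, all called. In CPM, Sult2a8 went from 729 to 75.4 in the portal-low bin and from 468 to 108 in the portal-high bin between 0 h and 48 h.

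The same test of gradient change was positive and called at 48 h for 11 of 18 other synthesis enzymes, 11 of 16 transporters, 13 of 14 receptors and regulators and 6 of 6 sulfation and detoxification genes tested, and negative for 0, 1, 0 and 0. At 0 h, 3 of 16 other synthesis enzymes were higher and 10 lower in the periportal bin, with 2 and 8 of 16 transporters, 0 and 3 of 14 receptors and regulators and 0 and 2 of 6 sulfation genes.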

How the data were processed

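RNA of 11 mouse liver sections was measured with Visium 3′ chemistry. Per the labels' processing notes, Space Ranger 1.0.0, Seurat 4.1.1 and build mm10 were named. The values are raw UMI counts per gene and spot, deposited by the authors without normalization for all 4992 spots of the grid. Spots under the deposited tissue mask with at least 800 genes and at most 20% mitochondrial UMIs were summed per section, and all 11 sections shared 1 fit with the time point as group (TMM, edgeR 4.0.16 quasi-likelihood test in R 4.3.3, low-count filter, Benjamini-Hochberg adjusted p under 0.05). Replicate sections of a time point were no duplicates (chi-square per gene of 40.8 to 216).

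For zones, spots were thinned to 2000 UMIs for scoring, hepatocyte-low spots (0.361% to 14.2% per section) were left out, and raw counts were summed over 5 bins per section and fitted with section as a block. Ratios were tested by exact two-sided permutation in Python 3.11.15 with scipy 1.17.1. Coordinates are of GENCODE on GRCm38, promoters of RefSeq on GRCm38.p6. On simulated data for the 48 h comparison (14509 genes), 178 of 200 changed genes were recovered with 7 false calls, with 158 and 157 recovered at 24 h and 36 h. For zones (12717 genes), changes set in the 0 h bins alone were recovered for 158 of 200 genes at 0 h and, as changes of gradient, for 94, 95 and 116 at 24, 36 and 48 h. The bin contrasts at those 3 times, where no change was set, gave 0 calls, so recovery within an injured time was not simulated. The zone counts were simulated with the same spread as whole sections, whose fit had a coefficient of variation of 0.194. The zone fits had far smaller values, 0.0295 at 0 h and 0.0336 by time, so recovery at their own spread was not measured.

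The members and lists were chosen with earlier results of these data known. The text names all 10 members, at most 3 called genes a direction of each pathway list at 48 h with a mean of at least 5 CPM, and the 3 genes most like each member by Pearson r of log2(CPM + 0.5); Nr1h4, Dbp and single unadjusted values were named after they were seen. A gene that this rule names and a searched motif are not reported here. Alternatives were DESeq2 1.42.0, total-count scaling, no low-count filter, other spot sets, 3 bins, the study's landmark lists, each section left out and a replicate block. The hepatocyte marker scale, the outer bins alone and the unblocked injured fit were added after the data were seen.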

Additional observations from a re-analysis of the deposited data

Results flagged for a closer look

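The ratio of Slc10a1 to Abcb11 stood apart in 1 of the 4 sections at 48 h. In section 48 h D the linear ratio was 0.614 against 0.932, 0.940 and 1.0 in A, B and C, and the gap to the nearest section took 0.852 of the whole range on the log2 scale, above Dixon's 95% critical value for 4 sections. Of 13 such tests this was the single one past its limit, and chance alone marks about 1 in 20.

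The difference between portal-high and portal-low spots changed from 0 h to an injured time for most members, by the test of that difference itself. At 24 h the change in log2 was 0.88 for Cyp8b1 (adjusted p = 0.0104), 0.40 for Cyp27a1, 0.39 for Abcb11 (adjusted p = 0.0426), 0.45 for Baat and 0.25 for Slc27a5 (adjusted p = 0.0459). At 36 h it was 1.54 for Cyp7a1, 0.77 for Cyp7b1, 0.85 for Cyp8b1, 0.86 for Cyp27a1, 0.35 for Slc10a1, 0.46 for Abcb11, 0.43 for Baat, 0.57 for Slc27a5 and 0.71 for Sult2a8. At 48 h it was 1.61 for Cyp7a1, 0.98 for Cyp7b1, 1.09 for Cyp8b1, 0.97 for Cyp27a1, 0.79 for Slc10a1, 0.76 for Abcb11, 0.84 for Baat, 0.80 for Slc27a5, 0.80 for Nr0b2 and 1.17 for Sult2a8. The portal-low bins at 48 h also held more macrophage and myofibroblast marker UMIs than the portal-high bins, and the part of these cells in the change was not tested.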

How the results depend on the processing

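Of 93 values of single members, 880 of 943 repeats that left out a section kept direction and side of the threshold, as did 636 of 743 other repeats, and of 17 counts and ratios 169 of 179 and 103 of 122 did. The 3 ratios kept theirs in every repeat. The number of members called moved with the section left out, from 4 to 8 at 36 h against 0 h, 1 to 4 at 36 h against 24 h, 0 to 1 at 48 h against 36 h, 2 to 5 at 48 h against 24 h, 3 to 8 between the bins at 24 h and 1 to 5 for the change of gradient at 24 h. The lowest counts came without 36 h B (4) and without 24 h B (1, 2, 3 and 1). Total-count scaling called 5 members at 48 h against 0 h and 2 for the change of gradient at 24 h, where 3 bins in place of 5 called 3. DESeq2 called 1 at 48 h against 36 h, fitting only the groups compared called 0 at 36 h against 24 h, and the study's landmark lists called 8 between the bins at 36 h. The hepatocyte marker scale called 5 at 48 h against 0 h, 2 at 36 h and 2 at 48 h against 24 h, 3 between the bins at 36 h, and 1 and 5 for the change of gradient at 24 h and 36 h. The portal-high bin alone called 5 at 36 h and 4 at 48 h against 0 h, and the portal-low bin alone called 1 at 36 h against 24 h. The cause was not tested.

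Directions turned in few cases. Against 0 h, Nr0b2 turned to 0.14 at 24 h under the marker scale, and at 36 h to 0.44 under total counts, 0.52 under the marker scale, 0.24 in the portal-high bin, 0.24 without 0 h 4 and 0.84 without 36 h B, the left-out sections giving -2.52 to 0.84. Cyp7a1 at 36 h turned to -0.27 without 0 h 3, -0.05 without 0 h 4, -1.20 without 36 h B (left-out sections, -1.20 to 0.76) and -0.38 in the portal-low bin, where it was -0.21 at 48 h. Between zones at 0 h the marker scale gave -0.29 for Slc27a5, -0.23 for Slc10a1 and -0.10 for Nr0b2, and total counts gave -4.17e-05 for Slc27a5. Between the bins at 24 h, Slc10a1 was -0.000298 under total counts, and the marker scale gave -0.29 for Slc10a1, -0.082 for Baat and -0.21 for Slc27a5. At 36 h that scale gave -0.20 for Cyp27a1, -0.066 for Slc10a1 and -0.12 for Baat. At 48 h Cyp7a1 was -0.23 under total counts, -0.00428 without 48 h C and -0.56 under the marker scale, which gave -0.066 for Cyp7b1, -0.17 for Cyp27a1 and -0.071 for Sult2a8. Under the marker scale the median over all genes was -0.35 between zones at 0 h. Between the bins at 24, 36 and 48 h it was -0.50, -0.52 and -0.64. No change of gradient turned.

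Whether the section letters pair samples across time points is not known. The differences of section A from section B correlated at 0.37 (24 h and 36 h), -0.21 (24 h and 48 h) and -0.10 (36 h and 48 h) over 14821 genes. With the letter as replicate block among the injured sections, 0 members were called at 36 h against 24 h, 0 at 48 h against 36 h and 0 at 48 h against 24 h, and without the block in the same sections 0, 0 and 2. The lowest UMI count of a member in any section was that of Cyp7a1 in 24 h B, at 14. With 2 sections at 24 h and at 36 h, a left-out section leaves a lone one whose spread is assumed to be that of the other groups. Each time point may be 1 liver, so the spread between mice was not measured.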

Other observations

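With each spot thinned to 2000 UMIs, the share of spots with a UMI of Nr0b2 was 4.75%, 7.10% and 8.76% in the 0 h sections, 6.31% and 6.43% at 24 h, 16.2% and 1.62% in 36 h A and B, and 9.85%, 26.6%, 7.27% and 12.9% in 48 h A to D. The share for Abcb11 was 47.4%, 54.8% and 53.9% at 0 h, 26.5% and 17.2% at 24 h, 32.6% and 13.9% in 36 h A and B, and 48.7%, 41.2%, 40.4% and 48.0% at 48 h. The 36 h sections were thus far apart in both genes, and 48 h B stood highest in Nr0b2.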
